A study of Mus musculus with 3 samples.

Results

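The expression of 40 genes of the cell cycle and of DNA replication was followed in splenic macrophages of mice carrying acute myeloid leukemia. The members were the rows of the expression tables whose NCBI gene ID belongs to 1 of 40 chosen symbols and that reached 1 FPKM in any library. All 40 did, of 17615 genes listed in any library and 12961 at 1 FPKM or more. FPKM scales the fragments of a gene to its length and to the depth of the library. Of the members, 23 act mainly in mitosis and 17 in S phase.

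Recipients were C57BL/6J mice aged 6 to 8 weeks, not irradiated, each given 800000 leukemia cells carrying GFP and BFP. The title of the control names no form of M-CSF, and the titles of the others name a high level of mM-CSF or of sM-CSF. M-CSF is the growth factor that maintains macrophages, and neither the prefixes nor the way the levels were raised are explained in the labels. On day 18 cells without GR1, with intermediate CD115 and with F4/80 were sorted, and survival is given as 30 to 40 days. There was 1 library per group, so no difference below has a replicate check and no test between conditions was possible. How many mice went into each library is not given in the sources used here.

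Cells that divide switch on these genes in a fixed order. Toward S phase, E2F transcription factors freed from the retinoblastoma protein raise cyclin E, the MCM helicase, its loaders and the enzymes that make deoxynucleotides. Toward mitosis, the MuvB complex with B-MYB and FoxM1 raises cyclin B, the mitotic kinases, the spindle motors and the kinetochore proteins, which are degraded or silenced again as cells leave the cycle. Resting macrophages transcribe little of either set, whereas splenic red pulp macrophages can renew in place, and the leukemic spleen also holds dividing blasts, erythroid precursors and lymphocytes.

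Promoters of these programs are known for short motifs that their regulators bind. The promoters of 5 members are shown because the values below turn on several of these genes and because the 250 bases before the start of each hold such motifs. Promoter sequences came from RefSeq on GRCm38.p6 and were matched by gene ID for 33 members; Ccna2, Aurkb, Tpx2, Kif20a, Mcm4, Gins2 and Ccne2 had no entry. Capitals mark, on either strand, the cell cycle homology region TTTGAA, the CCAAT box CCAAT, and an E2F site read as TTTGGCGC, TTTGCCGC, TTTCGCGC or TTTCCCGC. The sequences run 5′ to 3′ along the strand of the gene and end at the base before its start.
Mki67 (chr7:135716380-135716629, minus strand): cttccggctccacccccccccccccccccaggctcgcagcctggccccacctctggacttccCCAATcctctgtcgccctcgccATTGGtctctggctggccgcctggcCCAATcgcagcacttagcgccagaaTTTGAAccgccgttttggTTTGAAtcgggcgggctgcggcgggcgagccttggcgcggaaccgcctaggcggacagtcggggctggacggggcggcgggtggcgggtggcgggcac
Cdc20 (chr4:118437344-118437593, minus strand): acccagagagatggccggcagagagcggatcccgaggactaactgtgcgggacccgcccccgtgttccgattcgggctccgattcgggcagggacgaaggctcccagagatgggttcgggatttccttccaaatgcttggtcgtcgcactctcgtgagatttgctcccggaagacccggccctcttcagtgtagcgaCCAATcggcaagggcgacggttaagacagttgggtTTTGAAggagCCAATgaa
Ube2c (chr2:164769679-164769928, plus strand): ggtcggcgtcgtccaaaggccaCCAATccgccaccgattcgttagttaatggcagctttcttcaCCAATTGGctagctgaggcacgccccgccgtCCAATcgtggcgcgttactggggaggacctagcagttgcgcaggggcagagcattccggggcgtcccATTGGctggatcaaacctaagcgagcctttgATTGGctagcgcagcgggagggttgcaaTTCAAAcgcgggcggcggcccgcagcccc
Cdc6 (chr11:98907901-98908150, plus strand): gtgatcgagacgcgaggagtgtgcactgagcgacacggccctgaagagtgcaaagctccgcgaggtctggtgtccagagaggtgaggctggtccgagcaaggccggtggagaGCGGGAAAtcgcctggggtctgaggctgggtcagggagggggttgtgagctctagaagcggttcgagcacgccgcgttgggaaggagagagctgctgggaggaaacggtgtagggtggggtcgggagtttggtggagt
Mcm6 (chr1:128359706-128359955, minus strand): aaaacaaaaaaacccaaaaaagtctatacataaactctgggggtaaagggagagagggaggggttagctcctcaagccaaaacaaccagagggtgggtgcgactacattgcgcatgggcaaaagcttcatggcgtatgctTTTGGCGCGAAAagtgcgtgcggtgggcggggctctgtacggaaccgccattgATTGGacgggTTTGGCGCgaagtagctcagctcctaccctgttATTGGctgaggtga
In Mki67, Cdc20 and Ube2c a homology region begins 116 and 98, 18, and 29 bases before the start, respectively. CCAAT boxes lie further upstream in all of them, and Cdc20 has another one 8 bases before the start. Cdc6 has a single E2F match 138 bases before the start and no CCAAT box in the bases shown. Mcm6 has E2F matches that begin 110, 106 and 47 bases before the start, the first and second of them overlapping readings of opposite strands.

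Over windows of 250 bases before to 50 after the start, the homology region was in 15 of 20 promoters of mitotic members (75%), in 1 of 16 promoters of S-phase members (6.25%, Mcm2) and in 17.9% of all 32851 promoters. The E2F site had the opposite split, with 7 of 16 promoters of S-phase members (43.8%), 1 of 20 of mitotic members (5%, Cdk1) and 2.26% of all promoters. CCAAT boxes were in 18 of 20 mitotic and 11 of 16 S-phase promoters, and in 37.4% of all. Among the 10056 promoters of genes at 5 FPKM or more in any library, the homology region was in 12.5%, the E2F site in 4.15% and the CCAAT box in 37.7%. The E2F share of mitotic members (5%) was thus near that of these genes. These matches describe the letters in the window and not sites in use. The homology region was thus mostly in mitotic and the E2F site mostly in S-phase promoters, a split that uses no expression value of these libraries.

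The total of estimated counts was 9.09e+06 for control, 8.57e+06 for mM-CSF and 8.94e+06 for sM-CSF. The 12 macrophage markers checked were at 1 FPKM or more in every library. So were all genes of the erythroid, plasma cell, B cell, germinal centre, T cell and NK cell lists, so this level does not set macrophages apart. In the order control, mM-CSF, sM-CSF, macrophage markers summed to 1646, 1830 and 1264 FPKM and the 8 B cell markers to 1398, 2776 and 2606. Of the genes for the sorted proteins, Csf1r (CD115) was at 268, 222 and 149 FPKM and Adgre1 (F4/80) at 101, 67.5 and 65.5, in the order control, mM-CSF, sM-CSF. Among markers of other cell types, Hba-a1, an alpha globin gene, was at 2336, 1990 and 1659 FPKM, which is uncertain because a near-identical copy can share its reads. In sorted cells measured in bulk, fewer dividing cells and less RNA per cell cannot be told apart, nor can the members' RNA be assigned to macrophages or to other cells.

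Together the members took 0.438% of the counts for control, 0.393% for mM-CSF and 0.312% for sM-CSF. The mitotic members had a median level of 21.9 FPKM for control, 19.4 for mM-CSF and 13.7 for sM-CSF, and the S-phase members of 44.1, 39.4 and 32.3 FPKM. Levels between members spanned from Pcna, the sliding clamp of the replication fork, at 189, 252 and 170 FPKM in the order control, mM-CSF, sM-CSF, to Cenpf, a large kinetochore protein, at 5.06, 2.67 and 2.25. In 37 of 40 members every library had 5 FPKM or more. The sM-CSF library was the lowest of the 3 for 34 members, 21 of them mitotic, against 14.6% of the 9915 genes at 5 FPKM or more in any library. The control was the highest for 24 members and the mM-CSF library for 16 (37.5% and 39.8% of those genes). The lowest value was the control's for 2 members and the mM-CSF library's for 4 (37.4% and 47.6%). No member was highest with sM-CSF (22.5%).

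**Figure D1:**
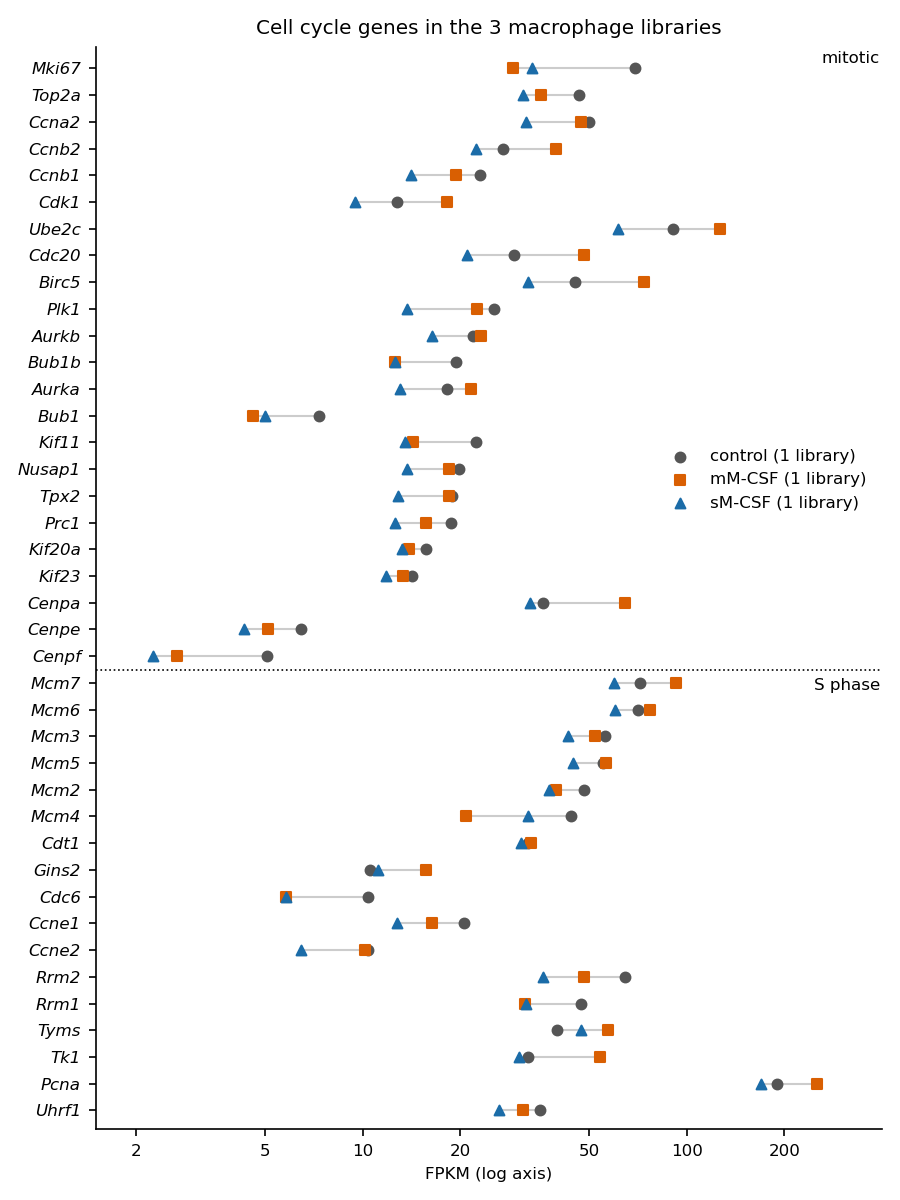
FPKM of the 40 members (log axis) in the control (circle), mM-CSF (square) and sM-CSF (triangle) library, 1 library each, with mitotic members above and S-phase members below the dotted line. The triangle is the leftmost symbol for 34 members, and Tyms and Gins2 are the ones with the control leftmost.

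The first comparison asks how cell cycle transcripts differ in macrophages exposed to high sM-CSF leukemia and to control leukemia. The cell cycle genes were lower in the sM-CSF library, by a modest factor that ran through nearly every functional group. The difference, always of log2(FPKM + 1), was below 0 for 38 of 40 members and above it for 2. Among the 9683 genes with at least 5 FPKM in either library these shares were 47.8% and 52.0%. Mki67 alone was lower by at least 2-fold (1.63% of those genes) and none was higher (0.785%). At 1.5-fold 11 members were lower (5.80%) and none higher (4.20%). The median difference was -0.50 over mitotic and -0.35 over S-phase members, and 0.02 over 12670 genes at 1 FPKM or more. As summed counts, the mitotic members had 0.619 of their control share (95% interval 0.606 to 0.633) and the S-phase members 0.807 (0.791 to 0.825). All such intervals are exact, conditional on the summed counts, and cover counting error only.

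Mki67 (gene 17345), which coats mitotic chromosomes and is the standard marker of dividing cells, was at 69.2 FPKM for control, 29.1 for mM-CSF and 33.4 for sM-CSF. The control stood above both others, and the share of counts in the sM-CSF library was 0.483 of the control's (0.463 to 0.505). Its difference of -1.03 fell short of 2-fold once a trend of differences with gene length was removed (-0.71), after which no member was 2-fold lower or higher (1.80% and 0.496% of genes), and 39 were below 0 and 1 above (50.2% and 49.6%). Top2a, the topoisomerase that untangles sister chromatids, was at 46.4, 35.4 and 31.1 FPKM in the same order, with a ratio of sM-CSF to control of 0.671 (0.628 to 0.718). Mki67 had the most counts of the mitotic members, and without it the remaining 22 had 0.683 of the control share (0.665 to 0.701), a value added after the data were seen.

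The cyclins of mitosis and their kinase were all lower in the sM-CSF library. Ccnb1, which encodes cyclin B1, was at 23.0 FPKM for control and 14.1 for sM-CSF, a count share ratio of 0.615 (0.530 to 0.713). Ccna2, the cyclin of S phase and G2, was at 50.1 and 32.0 FPKM, and Cdk1, the kinase that both cyclins activate, at 12.8 and 9.45. Ccnb2 differed least of the 4, at 27.2 and 22.4 FPKM and a ratio of 0.825 (0.708 to 0.962). The 2 genes of the anaphase-promoting complex pathway, its activator Cdc20 and its ubiquitin-conjugating enzyme Ube2c, had 29.2 and 20.9 FPKM and 90.8 and 61.4 FPKM, respectively, with ratios of 0.718 (0.623 to 0.828) and 0.679 (0.605 to 0.761).

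Among the kinases and passengers, Plk1, the polo-like kinase of mitotic entry, was the lowest of the mitotic members after Mki67 and Cenpf, at 25.5 FPKM for control and 13.7 for sM-CSF (ratio 0.537, 0.462 to 0.623). The spindle kinase Aurka was at 18.3 and 13.0 FPKM, and the passenger kinase Aurkb was at 21.9 and 16.3 (ratio 0.745, 0.638 to 0.870). Birc5, which encodes the passenger protein survivin, was at 45.1 and 32.4 FPKM. The checkpoint kinases Bub1 and Bub1b had 7.33 and 5.01 FPKM and 19.4 and 12.6 FPKM, respectively. The 6 genes of this role group thus had differences from -0.85 to -0.41, each with an interval of the ratio below 1.

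Spindle and cytokinesis genes spanned a wider range. Kif11, the kinesin that pushes spindle poles apart, was at 22.3 FPKM for control and 13.5 for sM-CSF (ratio 0.605, 0.546 to 0.671). Kif20a and Kif23, kinesins of the central spindle, differed least, at 15.7 and 13.2 and at 14.2 and 11.8 FPKM, with ratios of 0.849 (0.743 to 0.969) and 0.836 (0.726 to 0.962). The microtubule-binding genes Tpx2, Nusap1 and Prc1 lay between them, at 18.9 and 12.8, 19.8 and 13.8, and 18.7 and 12.6 FPKM. At the centromere, Cenpf had a ratio of 0.446 (0.380 to 0.523) at a level of only 5.06 and 2.25 FPKM, which the added 1 in the logarithm reduces to a difference of -0.90. The kinesin Cenpe was at 6.47 and 4.31 FPKM. Cenpa, the histone that marks centromeres, was at 35.9 and 32.8 FPKM, and its ratio of 0.929 (0.813 to 1.06) was the single mitotic one whose interval held 1.

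The replicative helicase was lower as a whole in the sM-CSF library, with a median difference of -0.33. The subunits Mcm2 to Mcm7, which form 1 hexamer around DNA, had differences between -0.44 (Mcm4) and -0.23 (Mcm6), and all 6 intervals lay below 1. Mcm4 was at 44.1 FPKM for control and 32.3 for sM-CSF (ratio 0.734, 0.678 to 0.796), and Mcm6 at 70.7 and 60.1 (ratio 0.864, 0.809 to 0.923). Their mean level was 57.6 and 46.2 FPKM, and the ratio of the highest to the lowest subunit was 1.63 and 1.86, so the subunits had a similar spread of levels in both.

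Loading and firing of origins split. Cdc6, the ATPase that loads the helicase, was at 10.4 FPKM for control and 5.79 for sM-CSF (ratio 0.560, 0.476 to 0.658), while its partner Cdt1 was at 32.4 and 30.8 FPKM (ratio 0.952, 0.851 to 1.06). Gins2, a subunit of the active helicase, was at 10.6 and 11.1 FPKM (ratio 1.06, 0.795 to 1.40), and at 100 counts in the control its interval was the widest of all members. Both cyclin E genes, which drive entry into S phase, were lower, with Ccne1 at 20.6 and 12.7 FPKM (ratio 0.620, 0.524 to 0.732) and Ccne2 at 10.4 and 6.45 FPKM (ratio 0.623, 0.514 to 0.754).

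Enzymes of nucleotide supply went in both directions. Rrm2, the cell cycle-regulated subunit of ribonucleotide reductase, was at 64.3 FPKM for control and 35.9 for sM-CSF (ratio 0.559, 0.509 to 0.613), and Rrm1, the large subunit, at 47.1 and 31.9. Tk1, thymidine kinase, was at 32.3 and 30.4 FPKM, and the interval of its ratio of 0.943 (0.817 to 1.09) held 1. Tyms, thymidylate synthase, was the 1 member with an interval above 1, at 39.9 and 47.1 FPKM and a ratio of 1.18 (1.10 to 1.27). Pcna was at 189 and 170 FPKM (ratio 0.900, 0.845 to 0.958), and Uhrf1, which guides maintenance methylation to new DNA, at 35.3 and 26.3 (ratio 0.744, 0.680 to 0.814). In all, 35 members had an interval below 1 and 1 above it, against 27.9% and 27.3% of all genes tested.

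**Figure D2:**
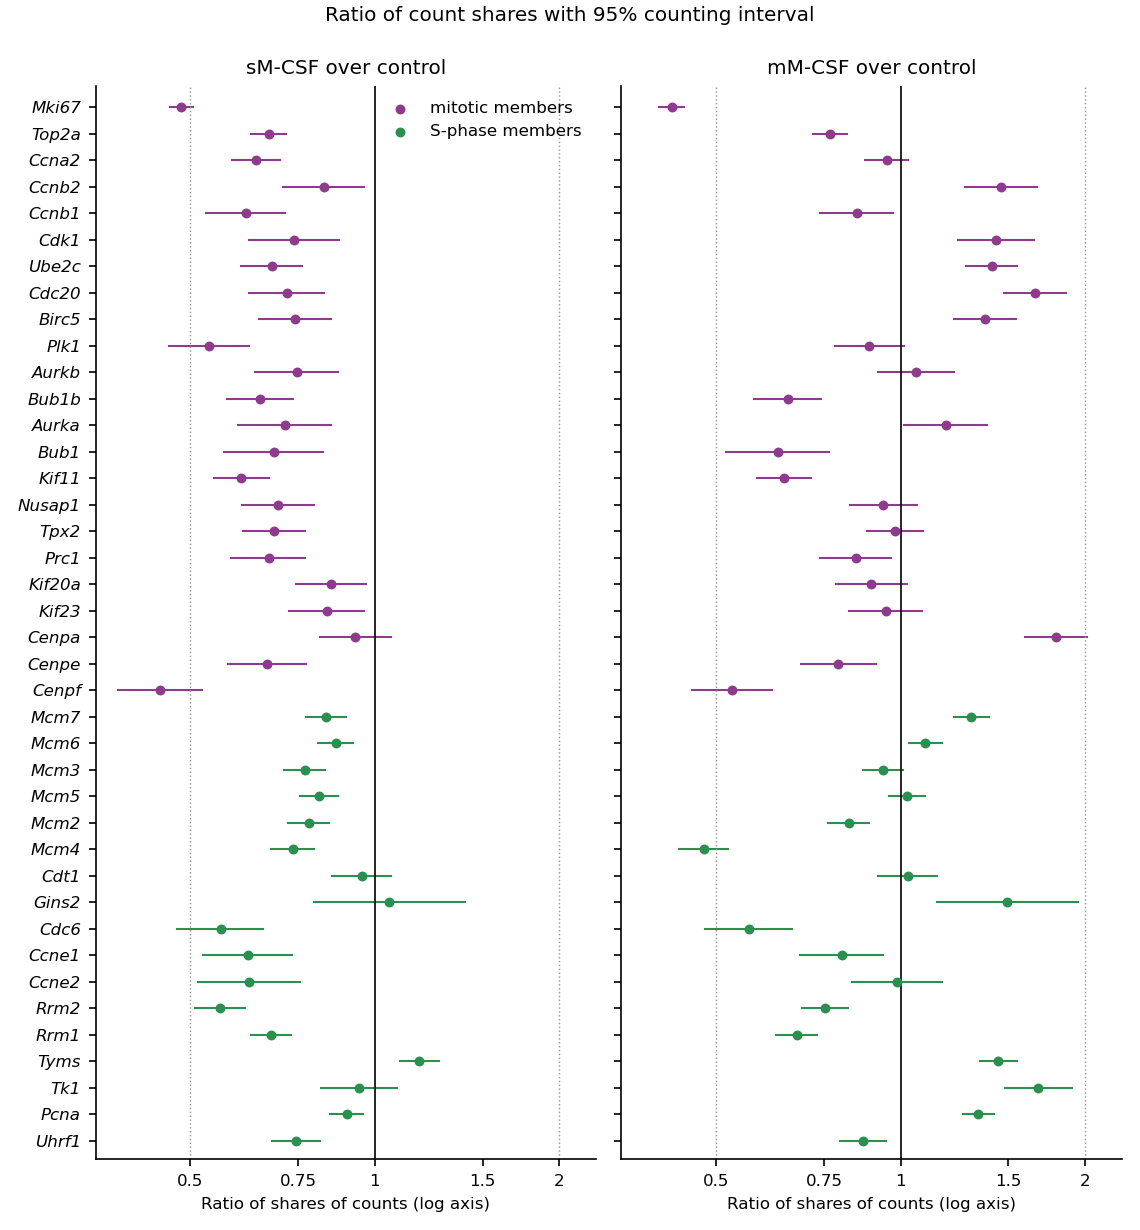
Ratio of shares of estimated counts (log axis) of each member in the sM-CSF (left) and mM-CSF (right) library over the control library, 1 library each, with exact 95% intervals for counting error only; dotted lines mark 0.5 and 2. On the left 38 of 40 points lie below 1, while on the right they spread to both sides, from Mki67 at 0.423 to Cenpa at 1.79.

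Markers of other cells also differed between these libraries. Of 10 erythroid precursor markers all were lower in the sM-CSF library (47.8% of all genes were), 2 of them by 2-fold against 1.63% of all genes (median difference -0.82). Their summed level was 2658 FPKM for control and 1828 for sM-CSF. All 8 B cell markers and all 10 T cell markers were higher, against 52.0% of all genes (medians 0.93 and 0.87, summed levels from 1398 to 2606 and from 357 to 634 FPKM). Of 12 macrophage markers 9 were lower and 3 higher, against 47.8% and 52.0% of all genes (median -0.28, summed 1646 and 1264 FPKM). Blast and progenitor markers had a median of -0.03 over 9 measured genes and sums of 272 and 267 FPKM, and the germinal centre list sums of 79.8 and 48.4 FPKM. Plasma cell, NK cell, neutrophil and megakaryocyte markers summed to 1438 and 1494, 248 and 286, 57.5 and 65.5, and 12.8 and 9.75 FPKM. Markers of the early B lineage summed to 3.09 and 4.22 FPKM, with Vpreb1 listed at 0 in the control. None of the other markers was at 0 in either library. The part of these cells in the lower cell cycle levels was not tested.

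The second comparison asks the same of high mM-CSF leukemia, and here the members lay on both sides of the control. Of 40 members, 24 had a difference below 0 and 16 above it, near the 52.2% and 47.8% among the 9789 genes with at least 5 FPKM in either library. Those lower by 2-fold were Mki67 and Mcm4 (15.1% of all genes were), and none was higher by 2-fold (8.97%). At 1.5-fold 5 were lower and 4 higher (27.4% and 21.6%). The median difference was -0.09 over mitotic and -0.03 over S-phase members, against -0.07 over 12782 genes. Under TPM these medians were -0.55, -0.48 and -0.51, so members and all genes shifted together. The summed share of counts was 1.00 of the control's for S-phase members (0.980 to 1.02). For mitotic members it was 0.798 (0.782 to 0.815), or 0.974 without Mki67 (0.950 to 0.997).

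Single members nonetheless differed well beyond counting error, in both directions, as many of all genes did. Cenpa was at 35.9 FPKM for control and 64.6 for mM-CSF (ratio 1.79, 1.60 to 2.01), Tk1 at 32.3 and 54.0 (ratio 1.68, 1.48 to 1.91) and Cdc20 at 29.2 and 48.1 (ratio 1.66, 1.48 to 1.86). At the other end, Mki67 had a ratio of 0.423 (0.404 to 0.443), Cenpf of 0.531 (0.456 to 0.618) and Cdc6, at 10.4 and 5.81 FPKM, of 0.565 (0.479 to 0.664). In total 16 intervals lay below 1 and 13 above, against 43.1% and 38.0% of all genes tested.

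The direction followed the length of the gene. All of the 10 shortest members, 931 to 1981 bases long, were higher in the mM-CSF library (median difference 0.52), and 9 of the 10 longest, 3798 to 11130 bases, were lower (median -0.57). All genes of the same lengths had medians of 0.47 and -0.67. The rank correlation (Spearman's rho) between length and difference was -0.75 across the 40 members and -0.59 across the 12782 genes, as a description over genes of the same library pair. Mki67, at 10098 bases the longest member after Cenpf, had a difference of -1.22. It was itself the median gene of the last length bin (6971 to 19827 bases), so that 0.00 was left with the trend removed. That exact value depends on the bins. Without the trend, Cenpf turned from -0.72 to 0.50 and Cdc6 went from -0.74 to -0.16. Cenpa, Tk1 and Cdc20 went from 0.83, 0.72 and 0.70 to 0.36, 0.14 and 0.34. After removal of the trend no member was 2-fold different in this comparison, where 8.05% of genes were lower and 2.90% higher. Then 17 members were below 0 and 22 above (50.8% and 49.1%), and the medians were 0.04 and 0.01. The farthest from the trend were then Cenpe (0.93) and Tyms (0.92), followed on the lower side by Mcm4 (-0.75). The place of Cenpe depends on the bins. At 7813 bases it lay near the short end of the last bin (6971 to 19827 bases, median -1.22), and the bin before had -0.87. In the sM-CSF comparison the trend was weaker (rho -0.36 for members, -0.38 for 12670 genes), and the medians without it, -0.54 and -0.34, were close to those with it.

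**Figure D3:**
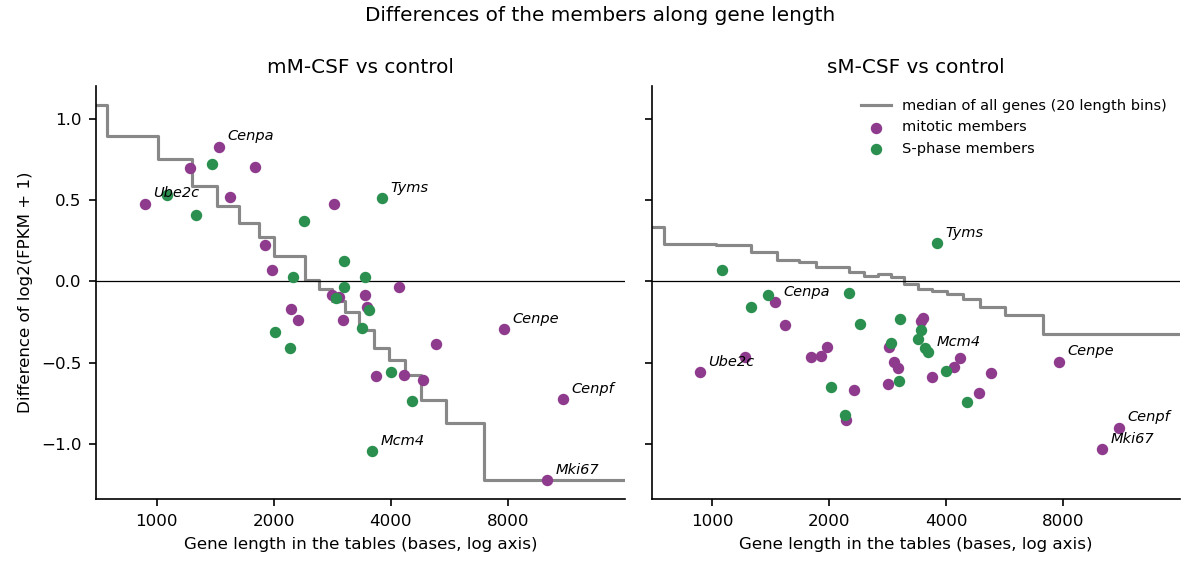
Difference of log2(FPKM + 1) of each member against gene length (log axis), for the mM-CSF (left) and sM-CSF (right) library against control, with the median of all genes in 20 length bins as a grey line. On the left the members scatter around the grey line from 0.83 (Cenpa) to -1.22 (Mki67), and on the right all but Tyms lie below it.

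Mcm4 broke step with the rest of the helicase in the mM-CSF library. It was at 44.1 FPKM for control, 20.9 for mM-CSF and 32.3 for sM-CSF, and the mM-CSF library had 0.477 of the control share of counts (0.434 to 0.523). Mcm2, which is similar in length, was at 48.2, 39.4 and 37.6 FPKM, and Mcm3, Mcm5 and Mcm6 were each within a difference of -0.10 to 0.12 of the control. Mcm7 was higher, at 71.6, 92.9 and 59.6 FPKM. The ratio of the highest to the lowest subunit, compared per length, was 4.45 in the mM-CSF library.

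Set directly against each other, most members had a higher FPKM in the mM-CSF than in the sM-CSF library. Of 39 members with at least 5 FPKM in either library, 35 had the higher value with mM-CSF and 4 the lower (45.5% and 54.4% of 9574 genes). At 1.5-fold 10 were higher and 1 lower (15.0% and 22.1%), and 28 intervals lay above 1 and 2 below (33.5% and 42.2%). At 2-fold 3 were higher (3.79%) and none lower (8.73%). These 3 were Cdc20 at 48.1 and 20.9 FPKM (ratio 2.31, 2.03 to 2.63), Birc5 at 73.9 and 32.4 (1.85, 1.63 to 2.11) and Ube2c at 127 and 61.4 (2.07, 1.86 to 2.31). The longest of them has 1793 bases, and without the length trend their differences of 1.16, 1.16 and 1.03 became 0.90, 0.61 and 0.35. For Birc5 the length that the tables give varied from 1068 to 1310 bases between libraries, so its FPKM difference exceeds its ratio of counts. The median difference was 0.43 over mitotic and 0.33 over S-phase members, against -0.11 over 12698 genes, and was 0.61 and 0.40 without the trend. Under TPM it was 0.13 and 0.0126, against -0.41 over all genes, so the higher level holds relative to other genes and little of it is left on that scale itself. With the trend removed Cdk1 (1.03) and Cenpe (1.07) passed 2-fold in place of those 3 (1.98% higher, 4.78% lower among all genes), and 37 of 39 were above 0 and 2 below (49.1% and 50.8%). Cenpe again lay near the short end of the last length bin, whose median was -0.87, against -0.64 in the bin before. Cenpf, under 5 FPKM in both libraries, was at 2.67 and 2.25 FPKM.

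By FPKM, Mki67, Bub1, Rrm1 and Mcm4 were the members lower in the mM-CSF than in the sM-CSF library. Mcm4 had a ratio of 0.649 (0.588 to 0.717), and Mki67, at 29.1 and 33.4 FPKM, of 0.875 (0.830 to 0.923). Bub1 was at 4.59 and 5.01 FPKM and Rrm1 at 31.6 and 31.9, and their intervals held 1. Without the length trend the differences of Mki67, Bub1 and Rrm1 were above 0 (0.68, 0.34 and 0.40). The members then below 0 were Mcm4 (-0.30) and Gins2 (-0.09). Since the comparisons share libraries, these values restate the 2 comparisons with control from another side.

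Markers of other cells differed in the mM-CSF library too. Blast and progenitor markers went both ways against the control (summed levels 272 and 857 FPKM). Of 8 genes at 5 FPKM or more, 4 were higher by 2-fold and 2 lower, against 8.97% and 15.1% of all genes. The granule protease gene Elane, which had the highest mean of this list over the 3 libraries, was at 54.5 and 397 FPKM, and below Mpo in the control (63.5 FPKM). Plasma cell markers were higher by 2-fold in 5 of 8 (1438 and 4447 FPKM) and neutrophil markers in 4 of 5 (57.5 and 266 FPKM), against 8.97% of all genes. Without the length trend these counts were 4 of 8 and 3 of 5, against 2.90% of all genes. The median differences of the plasma cell and neutrophil lists were 1.65 and 1.38, and 0.96 and 1.02 without the trend. Erythroid markers were lower in 9 of 10 (52.2% of all genes were), 4 of them by 2-fold (15.1%). Their median difference was -0.73, and -0.96 without the trend. Their sums of 2658 and 2138 FPKM were mostly Hba-a1 (2336 and 1990 FPKM). Macrophage markers were higher in 8 of 12 (1646 and 1830 FPKM), against 47.8% of all genes. B cell markers were higher in 6 of 8 and T cell markers in 8 of 10, against the same 47.8% (1398 and 2776, 357 and 758 FPKM). Their medians of 0.72 and 1.15 were 0.23 and 0.78 without the trend. The NK cell median turned from 0.04 to -0.57 without it. NK cell, megakaryocyte, germinal centre and early B lineage markers summed to 248 and 335, 12.8 and 15.0, 79.8 and 35.5, and 3.09 and 3.72 FPKM. The marker with the highest mean over the 3 libraries in each remaining list, in the order control, mM-CSF, sM-CSF, was Jchain for plasma cells (1008, 3301 and 1072 FPKM), Cd79a for B cells (468, 1117 and 958), Hmox1 for macrophages (354, 392 and 247), Gzma for NK cells (98.9, 180 and 133) and Thy1 for T cells (67.3, 147 and 123). By the same measure it was, in the lower lists, Bcl6 for the germinal centre (62.3, 14.2 and 34.4 FPKM), S100a8 for neutrophils (10.7, 122 and 15.8), Pf4 for megakaryocytes (4.12, 6.70 and 3.61) and Dntt for the early B lineage (1.06, 0.90 and 1.20), though S100a8 and Dntt were not the highest of their lists in every library. Except for Vpreb1 in the control, none of these markers was at 0 in either library, and their part in the values of the members was not tested.

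Genes of the same pathway outside the members were mostly lower in the sM-CSF library too, with medians of the lists between -0.39 and -0.09. Of 42 other mitotic factors at 5 FPKM or more, 36 were lower and 6 higher (median -0.39), against 47.8% and 52.0% of all genes. The 1 lower by 2-fold (1.63% of all genes were) was Knl1, the kinetochore scaffold, at 6.32 FPKM for control and 2.61 for sM-CSF. The condensin II subunit Ncapg2 was at 11.5 and 5.30 FPKM and the centrosome kinase Nek2 at 7.69 and 4.28. Of 43 other replication factors 35 were lower and 8 higher (median -0.24), none by 2-fold, against the same shares of all genes and 0.785% higher by 2-fold. The origin recognition subunit Orc1 was at 5.36 and 2.42 FPKM, the chromatin remodeller Hells at 12.7 and 6.43, and the checkpoint mediator Clspn at 8.11 and 4.81.

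Upstream of these genes, 11 of 15 E2F, MuvB and FoxM1 regulators were lower in the sM-CSF library and none by 2-fold (median -0.30), against 47.8% and 1.63% of all genes. The repressor E2f8 was at 16.7 FPKM for control and 9.39 for sM-CSF, the retinoblastoma gene Rb1 at 37.1 and 22.3, and Mybl2, which encodes B-MYB, at 10.9 and 7.34. G1 cyclins and kinases had a median of -0.21, with 9 of 10 lower and none by 2-fold, against the same shares of all genes. Among those lower were Skp2, a ubiquitin ligase subunit, at 10.8 and 7.30 FPKM, the phosphatase gene Cdc25a at 14.7 and 12.4, and Cks1b, a small Cdk-binding protein, at 40.8 and 34.4. CDK inhibitors and antiproliferative genes had 6 of 11 lower and 5 higher (median -0.09), near the 47.8% and 52.0% of all genes. The inhibitor Cdkn1a (p21) was at 13.4 and 8.60 FPKM, while Cdkn2d, another inhibitor, was at 17.6 and 24.5 and the antiproliferative gene Tob1 at 11.3 and 15.9.

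Among the regulators, the 3 genes of the retinoblastoma family had their lowest level in the mM-CSF library, and so did most of the others listed. That library was the lowest for 47.6% of the genes at 5 FPKM or more in any library. Of 14 E2F, MuvB and FoxM1 regulators 4 were lower by 2-fold (15.1% of all genes were) and, without the length trend, 1 (8.05%). The median of the list was -0.61, and -0.25 without the trend. Rb1 was at 37.1 FPKM for control and 9.46 for mM-CSF (ratio 0.257, 0.229 to 0.287), and stayed past 2-fold with the trend removed (-1.29). Its relative Rbl1 was at 19.96 and 6.87 FPKM and E2f8 at 16.7 and 6.04, both short of 2-fold without the trend (-0.84 and -0.92). The difference of Rbl2, also of this family, was -0.91, and -0.18 without the trend. Ccnd1, the cyclin D1 gene that growth factors induce in G1, was at 104 FPKM for control, 19.8 for mM-CSF and 89.8 for sM-CSF (ratio of mM-CSF to control 0.191, 0.175 to 0.208). It was low in the mM-CSF library alone, and its difference of -2.34 was -1.93 without the trend. Its kinase Cdk4 was at 123, 202 and 120 FPKM, and Cks1b at 40.8, 70.5 and 34.4. Without the trend the mM-CSF difference of Cdk4 went from 0.71 to 0.12, and that of Cks1b turned from 0.77 to -0.12.

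Of 11 CDK inhibitors and antiproliferative genes 1 was lower by 2-fold in the mM-CSF library, where 15.1% of all genes were. It was Cdkn1a, at 13.4 and 6.20 FPKM (median of the list -0.37, and -0.38 without the trend). The antiproliferative genes Btg2 and Tob2 had 106 and 53.7 FPKM and 30.0 and 14.8 FPKM, respectively, and differences of -0.97 each that were -0.78 and -0.49 without the trend. Other mitotic factors had 3 of 42 lower and 2 higher by 2-fold (median 0.06), shares below the 15.1% and 8.97% of all genes. Knl1, at 6.32 and 0.97 FPKM, remained past 2-fold without the trend (-1.02). Ncapg2, at 11.5 and 3.37 FPKM, did not (-0.64). Cenpm, a centromere protein gene, was at 7.51 and 21.0 FPKM, a difference of 1.37 that was 0.62 without the trend. Of 43 other replication factors none passed 2-fold (median 0.23, and -0.02 without the trend), with the clamp loader subunit Rfc2 at 45.8 and 82.6 FPKM, the polymerase alpha gene Pola1 at 7.86 and 3.58 and the fork protection gene Timeless at 9.90 and 5.36. Without the trend their differences of 0.84, -0.95 and -0.78 were 0.37, -0.22 and -0.20.

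With mM-CSF set against sM-CSF, where the median of all genes was -0.11, other replication and other mitotic factors had medians of 0.35 and 0.31 (0.31 and 0.45 without the length trend), with the dUTPase gene Dut at 31.9 and 16.2 FPKM, the clamp loader subunit Rfc4 at 22.5 and 11.7, Rad51ap1, a partner of the recombinase, at 11.2 and 5.86, the kinetochore gene Spc24 at 67.4 and 30.7, Cenpm at 21.0 and 8.46 and Cdca3, a mitotic entry factor, at 58.7 and 26.3. The E2F, MuvB and FoxM1 list had a median of -0.41 that was -0.14 without the trend, with Rb1 at 9.46 and 22.3 FPKM, Rbl1 at 6.87 and 14.4 and the third family member Rbl2 at 12.4 and 21.5. The G1 list had 0.11 as its median, and 0.31 once the trend was removed. CDK inhibitors and antiproliferative genes had -0.42 and -0.35, among them Tob1 at 8.25 and 15.9 FPKM.

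**Figure D4:**
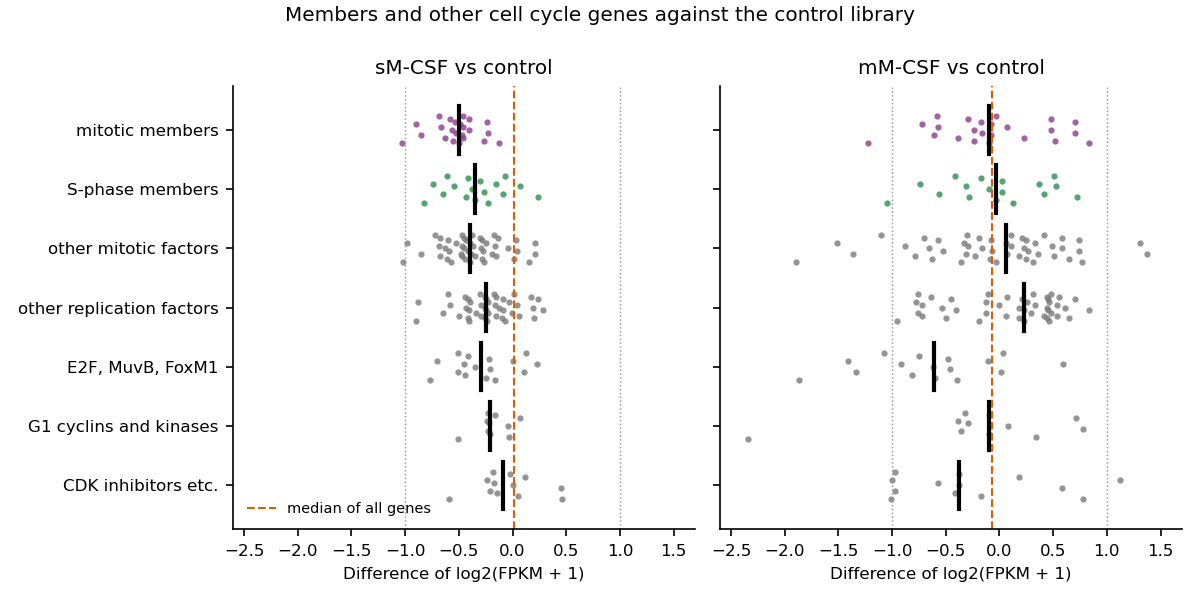
Difference of log2(FPKM + 1) against the control library for the members and 5 further lists (1 point per gene at 1 FPKM or more in either library; black bar, median of the list; dashed line, median of all genes; dotted lines, 2-fold). In the sM-CSF panel the 7 medians lie from -0.50 to -0.09, left of the dashed line at 0.02, and in the mM-CSF panel they lie from -0.61 to 0.23 around the dashed line at -0.07.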

How the data were processed

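Macrophage RNA was measured in 3 libraries, 1 per group, built from 1 ug of total RNA per the labels' protocols. Bowtie2 (2.2.5) and RSEM are named in the submitters' processing notes; their roles, the genome build, the annotation and strand use are not given in the sources used here. Per the file headers, the authors deposited an expected count, a length and an FPKM value per NCBI gene ID; lengths are in bases (other unit). A gene absent from a table was taken as 0. Symbols came from RefSeq (GRCm38.p6), for all but 54 of 17615 genes. Expected counts were rounded to whole numbers for intervals. For 8 members an expected count was not whole within 0.005 reads in some library, as when reads are divided between genes or transcripts.

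Differences of log2(FPKM + 1) understate changes of low genes. A gene was called at 2-fold with 5 FPKM or more in the higher library, and medians used genes at 1 FPKM or more. Ratios of count shares carry exact conditional (Clopper-Pearson) 95% intervals. A floor of 3 counts was 0.330 to 0.350 CPM. The length trend was the median difference in 20 length bins. Members, lists, roles and alternatives were chosen with earlier results of these data known. Every member is described. Full statistics were given for members past 2-fold and the extremes of each role in the sM-CSF comparison, and names from other lists were the 3 with the largest differences, and from marker lists the one with the highest mean FPKM. Other named genes and libraries, and the promoters shown, were chosen after values were seen. The 2-fold call and the counting interval were tested on counts simulated from the control library, without a length trend or spread between mice. Trend removal, list medians and the motif search were not tested in this way. Python 3.11.15, numpy 2.4.6, pandas 2.3.3, scipy 1.17.1 and matplotlib 3.10.9 were used.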

Additional observations from a re-analysis of the deposited data

How the results depend on the processing

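The lower level of the members in the sM-CSF library kept its direction under every alternative run (pseudocount of 0.1, TPM, median-of-ratios scaling, CPM, minimum FPKM, length trend removed), with medians from -0.67 to -0.50 for mitotic and from -0.50 to -0.34 for S-phase members. Under TPM all genes were displaced by nearly the same amount as the members, with medians of -0.51 in the mM-CSF, -0.12 in the sM-CSF and -0.41 in the direct comparison. Under it the S-phase median became -0.50 against control in the sM-CSF library, the mitotic and S-phase medians became -0.55 and -0.48 in the mM-CSF library, and 0.13 and 0.0126 when mM-CSF was set against sM-CSF, where they stayed 0.54 and 0.43 above the median of all genes. Counts of members past 2-fold were small and changed as follows; the cause was not tested. Lower than control in the mM-CSF library were 2 members, 0 with the length trend removed, 8 with TPM and 5 at 1.5-fold, where 4 were higher. Lower than control in the sM-CSF library was 1 member, 0 with the trend removed, 2 with a pseudocount of 0.1 or with CPM, 3 with TPM and 11 at 1.5-fold. For mM-CSF over sM-CSF 3 were higher, 2 with the trend removed or with CPM, 0 with TPM and 10 at 1.5-fold, where 1 was lower. Over all genes TPM changed the calls of the mM-CSF comparison from 878 higher and 1480 lower to 228 and 2867, those of the sM-CSF comparison from 76 and 158 to 60 and 263, and those of mM-CSF over sM-CSF from 363 and 836 to 146 and 1777; with the length trend removed they were 284 and 788, 48 and 174, and 190 and 458, and with CPM the sM-CSF comparison had 45 and 165. The mitotic and S-phase medians of the mM-CSF comparison changed sign, to 0.04 and 0.01, with the trend removed. No paired analysis was possible because each group has 1 library. With 1 library per group, spread between mice was not measured.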
